A study of Mus musculus with 6 samples.

Results

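The late response of NMuMG cells to TGFβ1 was described by comparing the 2 libraries of cells treated for 12 h with the 2 libraries of vehicle-treated cells, which are 4 of the 6 libraries of the series. The libraries were chosen by their labels, and the 11080 of 21240 counted genes with at least 2 CPM (counts scaled to the size of the library) in at least 2 of the 6 libraries were tested. NMuMG is an epithelial line derived from the normal mouse mammary gland. In all groups the cells were first kept for 6 h in medium without serum and, as the study states, without insulin. One group then received TGFβ1 at 5 ng/ml for 12 h, another received only the carrier buffer (vehicle) for 2 h, and a further group, used here to show where the late response differs from the early one, received the same dose of TGFβ1 for 2 h. The cells had therefore been without serum for 18 h in the 12 h group and for 8 h in the vehicle and 2 h groups, so that TGFβ1 and the longer time without serum and insulin cannot be told apart in the comparison of 12 h with vehicle, nor in that of 12 h with 2 h. Total RNA was sequenced with strand information in 2 biological replicates of each group. Library totals were 16251758 and 14705886 counts with vehicle, 20578661 and 19904400 at 2 h and 23786993 and 20142492 at 12 h.

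TGFβ ligands bind paired receptor kinases that phosphorylate Smad2 and Smad3, which enter the nucleus with Smad4 and act on target genes together with other factors, such as AP-1. In mammary epithelial cells TGFβ is known both for stopping the cell cycle and for inducing the epithelial-mesenchymal transition (EMT). In this transition cells loosen their junctions, build actin stress fibres and deposit matrix.

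A gene was called higher or lower when its log2 fold change (log2FC) was above 1 or below -1 and its adjusted p under 0.05, by the quasi-likelihood test of edgeR with Benjamini-Hochberg adjustment over all genes tested. Of the 11080 genes, 890 (8.03%) were called higher at 12 h than with vehicle and 1286 (11.6%) were called lower. The median log2FC of all genes tested was 0.015, with quartiles of -0.42 and 0.38. Groups of 2 libraries did not overlap in 8505 of these genes, so that a lack of overlap was common and is to be read beside this count. The genes called higher took 5.65% and 5.62% of the counts of the vehicle libraries and 17.9% and 17.7% at 12 h, while those called lower went from 11% in both vehicle libraries to 2.94% and 3.06%. Above the fold threshold decreases were thus more numerous, and they were also larger, with a median absolute log2FC of 1.90 against 1.61 among the increases. At an adjusted p under 0.05 regardless of fold, edgeR gave 2414 genes higher and 2385 lower. An absolute log2FC above 3 was reached by 351 of the genes called lower and 142 of those called higher. Without TMM scaling the median of all genes tested moved to -0.115, and the calls to 740 higher and 1485 lower.

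Markers of epithelial cells and of other cell types were read before the response. Of the 10 luminal epithelial markers, Krt8, Krt18, Krt19 and Cdh1 were tested, and their level summed with that of the other 6 was 5777 and 4958 CPM with vehicle and 10320 and 10370 CPM at 12 h, with Krt18 the most abundant. The other 6 were at or near 0: Prlr had no count in any library, Cldn3 had 1 count in 1 of the 2 h libraries, Cldn7 had 7 counts in that library and none elsewhere, and Epcam, Esr1 and Elf5 stayed under 1 CPM. The line was therefore epithelial by its keratins and E-cadherin, while the luminal markers Epcam, Cldn3, Cldn7, Esr1, Prlr and Elf5 were absent or nearly so in these libraries. Basal or myoepithelial markers summed to 5.29 and 2.99 CPM with vehicle and 6.18 and 9.39 CPM at 12 h over 7 genes, of which Krt14 was the most abundant, Trp63 had 0 to 2 counts and Oxtr had none. Fibroblast markers summed to 5.23 and 3.56 CPM with vehicle and 16.6 and 14.8 CPM at 12 h over 8 genes. Col1a1 was called higher and held most of the sum at 12 h, while Thy1 had no count and Lum at most 1. Col1a2 had 11, 19 and 28 counts in replicate 1 of vehicle, 2 h and 12 h, and 0, 4 and 3 in replicate 2, and Col3a1 and Dcn were likewise counted mainly in replicate 1. Leukocyte markers summed to 7.70 and 7.45 CPM with vehicle and 5.31 and 7.24 CPM at 12 h over 7 genes, mostly from Cd68, with Cd3e at 0. Endothelial markers summed to 0.412 and 0.446 CPM with vehicle and 1.96 and 2.21 CPM at 12 h over 5 genes, with Cdh5 the most abundant and Kdr at 0 in these 4 libraries. Adipocyte markers stayed under 0.3 CPM in sum in these 4 libraries over 4 genes, with Lep at 0. In bulk RNA, fewer cells that express a gene and less of its RNA per cell cannot be told apart.

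The TGFβ pathway itself showed a rise of most tested target and feedback genes, while its signal-carrying Smads were not called. Among 10 common targets, 6 were called higher and 3 lower, with a median log2FC of 1.77, or 0.95 with no filter. Ctgf, a matricellular protein gene, went from 27 and 14.7 CPM with vehicle to 1578 and 1359 CPM at 12 h, with 206 and 143 CPM at 2 h. Both late libraries lay far above all earlier ones. The log2FC was 6.13 (SE 0.358, edgeR's adjusted p = 6.96e-05) against vehicle and 3.07 between 12 h and 2 h, so that it was called higher in both comparisons. The 3 targets called lower were Id1, Id2 and Id3, which encode inhibitors of basic helix-loop-helix factors. Id2 had 367 and 207 CPM with vehicle and 21.7 and 23.7 CPM at 12 h, below either vehicle library. The log2FC was -1.84 for Id1, -3.66 for Id2 and -2.05 for Id3.

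Inhibitors and feedback genes of the pathway had 9 of 14 tested members called higher and none lower (median log2FC 1.57). They included the inhibitory Smad gene Smad7 (log2FC 2.65, SE 0.285), the Smad corepressor Skil (2.21, SE 0.245), Pmepa1 (3.83, SE 0.257), whose protein keeps Smads from the receptor, and the latent TGFβ binding protein genes Ltbp1 to Ltbp4. Pmepa1 was counted at 83.9 and 61.9 CPM with vehicle, 1049 and 702 CPM after 2 h and 1126 and 951 CPM at 12 h. Its late libraries were far above vehicle and close to those at 2 h, and the log2FC between 12 h and 2 h was 0.25, which was not called. Ltbp2 had 1 count in each vehicle library and 4.31 and 4.16 CPM at 12 h, at least 23.1-fold higher. Of 8 tested receptors, Acvr1, Tgfbr1 and Bmpr2 were called higher and none lower (median log2FC 0.41, or 0.18 with no filter), and 1 was lower without TMM scaling. The type I receptor gene Acvr1 rose from 31.2 and 22.7 CPM to 152 and 136 CPM (log2FC 2.42, SE 0.183). Tgfbr1 had 204 and 140 CPM with vehicle and 536 and 389 CPM at 12 h, without overlap, as in 8505 of the 11080 genes tested. The log2FC of Tgfbr1 was 1.43 (SE 0.347), but it was no longer called without vehicle replicate 2 (edgeR's adjusted p = 0.0839) or without 12 h replicate 1 (0.113). Tgfbr2 had a log2FC of 0.12.

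Of 10 tested ligand genes, 3 were called higher and 2 lower (median log2FC 0.25). The median was 0.17 without vehicle replicate 1, 0.09 without 12 h replicate 2, 0.12 without TMM scaling and -0.04 with no filter. Inhba, which encodes a subunit of activin, went from 3.82 and 5.41 CPM to 34.2 and 39.6 CPM, with 2.68 and 3.43 CPM at 2 h. The rise was thus seen in the late libraries alone, with a log2FC of 3.0 (SE 0.228) against vehicle and 3.59 against 2 h. Bmp1, a procollagen-cleaving protease listed with the ligands for its name, had a log2FC of 2.45 (SE 0.123), and Tgfb1 one of 1.11, which was 0.99 without vehicle replicate 1 and 0.98 without TMM scaling, with no call in either. Bmp4 was called lower at -1.30 (SE 0.219). Gdf15 was called lower at -2.09 (SE 0.469) but lost the call without vehicle replicate 2 and without either 12 h replicate, with edgeR's adjusted p between 0.0556 and 0.0898. None of the 5 tested signal-carrying Smad genes was called by edgeR, limma-voom or DESeq2, with log2FC between 0.05 and 0.26 and a median of 0.23, or 0.10 without TMM scaling. Smad3 was counted at 189 and 160 CPM with vehicle and 201 and 208 CPM at 12 h.

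**Figure D1:**
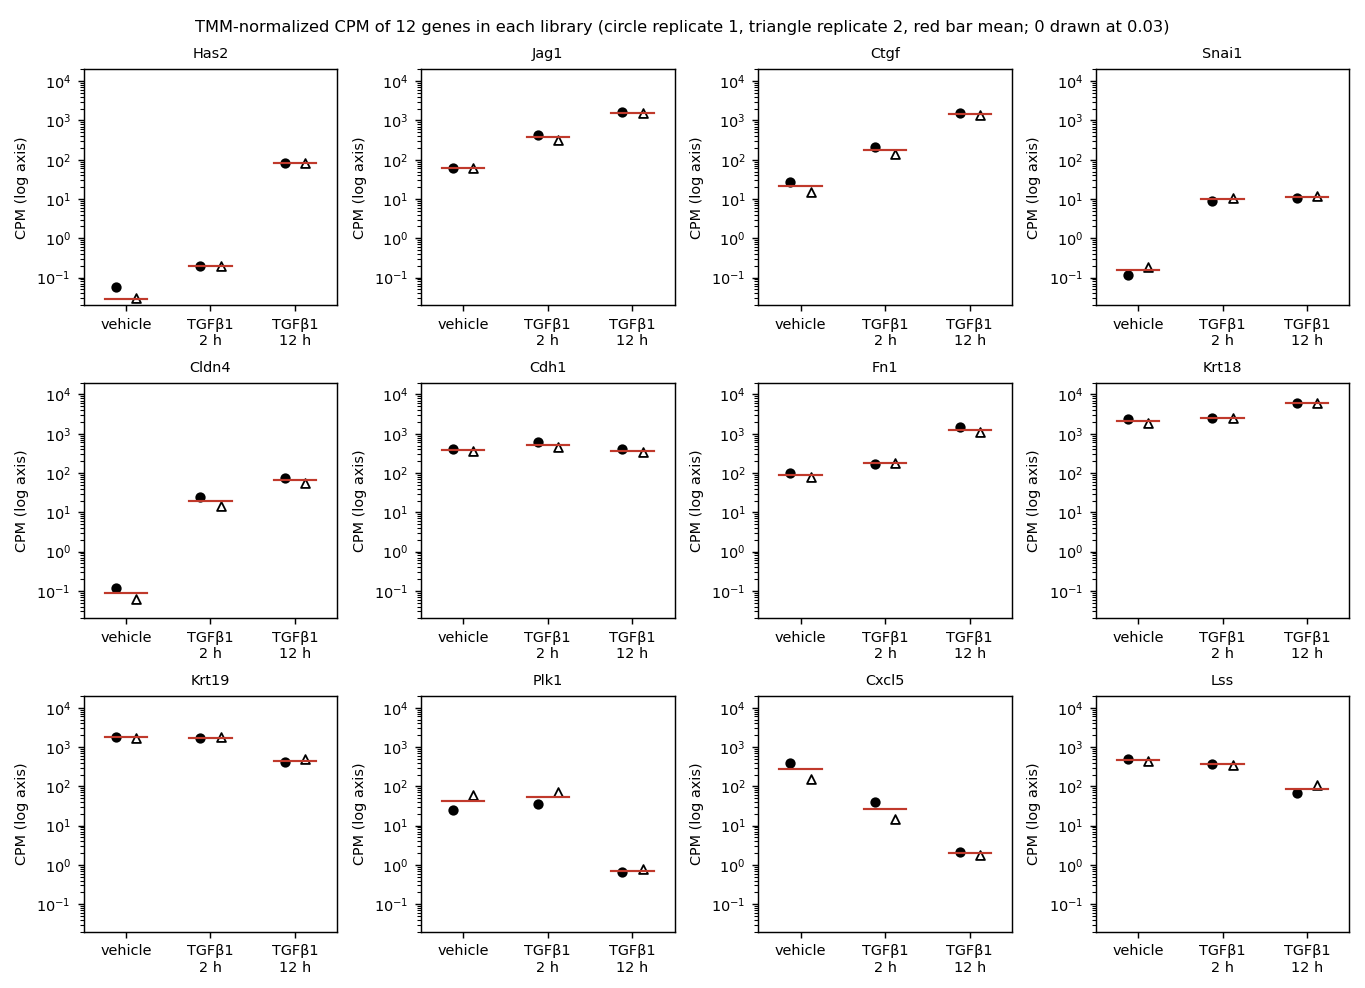
TMM-normalized CPM (log axis, the same range in every panel) of 12 genes in the 2 libraries of each group, with vehicle, TGFβ1 for 2 h and TGFβ1 for 12 h on the horizontal axis, circles for replicate 1, triangles for replicate 2, red bars for the mean and a value of 0 drawn at 0.03. Has2 is near 0 until 2 h and at 83.1 and 82.2 CPM at 12 h, Cdh1 stays between 337 and 608 CPM in all libraries, and Plk1 falls under 1 CPM only at 12 h.

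Of 12 tested transcription factors that drive EMT, 7 were called higher and none lower, with a median log2FC of 1.18. Snai1, the repressor of E-cadherin transcription whose gene lies at chr2:167363695-167368314 on the plus strand of NCBIM37 (mm9), was counted at 0.118 and 0.191 CPM with vehicle, 9.15 and 10.4 CPM after 2 h and 10.54 and 11.9 CPM at 12 h. The vehicle libraries held 2 and 3 counts, and the gene was at least 61.1-fold higher at 12 h. Between 12 h and 2 h Snai1 had a log2FC of 0.20 and was not called. Zeb2 went from 13.5 and 12.9 CPM to 56.5 and 58.5 CPM (log2FC 2.12, SE 0.124) and Zeb1 from 25.9 and 28.3 CPM to 73.4 and 78.0 CPM (1.48, SE 0.111). Zeb2 was also called higher at 12 h than at 2 h, with a log2FC of 1.40. Snai2 had 1.59 and 2.74 CPM with vehicle and 3.40 and 3.18 CPM at 12 h, which was not called.

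Among factors that maintain the epithelial state, calls went the other way. Of 12 tested epithelial transcription and splicing factors, 6 were called lower and none higher, with a median log2FC of -0.90, and Elf3, Ehf, Cebpa and Rbm47 were also lower at 12 h than at 2 h. Cebpa, a factor of differentiated epithelia, fell from 120 and 90.1 CPM with vehicle to 8.97 and 7.44 CPM at 12 h, with 75.5 and 45.7 CPM at 2 h. Ehf, an ETS factor of epithelia, had 150 and 129 CPM with vehicle and 16.1 and 11 CPM at 12 h. In both genes the late libraries lay well below all others, with a log2FC of -3.68 (SE 0.291) for Cebpa and -3.36 (SE 0.281) for Ehf. Rbm47, Elf3 and Klf5 were among the other members called lower. The splicing regulator Esrp2 had a log2FC of 0.10 (SE 0.132), while Esrp1 and Grhl2 were too low to be tested.

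The junction genes did not follow these factors as a group. Of 20 tested members of adherens and tight junctions 3 were called higher (15.0%, against 8.03% of all genes tested) and 3 lower (15.0%, against 11.6%). Their median log2FC of 0.00 changes sign when vehicle replicate 1 or 12 h replicate 2 is left out. Cdh1, which encodes E-cadherin, was counted at 421 and 363 CPM with vehicle, 608 and 452 CPM after 2 h and 407 and 337 CPM at 12 h. The vehicle and late libraries overlapped, and the log2FC was -0.07 (SE 0.177, edgeR's adjusted p = 0.762). Ctnnb1 (β-catenin) had a log2FC of -0.87 (SE 0.153), Tjp1 of -0.34 and Ocln of -0.52, and none of them was called. Tjp3 (-2.35, SE 0.227), the polarity gene Crb3 (-2.01, SE 0.162) and Llgl2 were called lower. Cldn4, a tight junction claudin at chr5:135420996-135422804 on the minus strand, had 2 counts and 1 count in the vehicle libraries, 24.5 and 14.4 CPM at 2 h and 75.2 and 56.3 CPM at 12 h. It was at least 358-fold higher than with vehicle and was called higher than at 2 h (log2FC 1.76), while Cldn3 and Cldn7 had no count in the vehicle and 12 h libraries. Nectin1 and Ctnnd1 were the other members called higher.

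Keratin genes were called in both directions, while most desmosome genes were not called. Of 8 tested keratins 5 were called higher and 2 lower (median log2FC 1.57). Krt18 rose from 2380 and 1916 CPM to 6126 and 6243 CPM and its partner Krt8 from 1131 and 1015 CPM to 3363 and 3295 CPM, with a log2FC of 1.53 (SE 0.134) and 1.63 (SE 0.110). Krt19, another keratin of simple epithelia, fell in the same libraries from 1845 and 1664 CPM to 420 and 489 CPM (-1.95, SE 0.128). These 3 keratins had no overlap between the groups, as had 8505 of the 11080 genes tested. Krt6a, with under 1 CPM in each vehicle library, was called lower at -1.69 but lost the call with DESeq2 and without any 1 vehicle or 12 h replicate, with edgeR's adjusted p between 0.061 and 0.115 in the latter fits. Krt80 and Krt20 were called higher. Of 10 tested desmosome genes 3 were called higher (30.0%, against 8.03% of all genes tested), 1 lower (10.0%, against 11.6%) and 6 neither. Their median log2FC was 0.43, or 0.20 with no filter. Evpl, 1 of the 3 called higher (1.57), lost its call without vehicle replicate 1 (1.76), vehicle replicate 2 (1.41) or 12 h replicate 2 (1.12). Pkp1, a plakophilin, rose from 7.47 and 12.2 CPM to 121 and 161 CPM (3.85, SE 0.363) and Jup, plakoglobin, from 378 and 398 CPM to 1119 and 1167 CPM (1.56, SE 0.101). The desmosomal plaque gene Ppl fell from 187 and 248 CPM to 44.3 and 44.0 CPM (-2.30, SE 0.157).

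Mesenchymal markers rose in part: of 12 tested, 6 were called higher and 1 lower, with a median log2FC of 1.46 (2.21 with no filter), and the same numbers were called higher and lower against 2 h. Fn1, fibronectin, was counted at 99.6 and 79.5 CPM with vehicle, 170 and 183 CPM after 2 h and 1467 and 1096 CPM at 12 h. Its late libraries stood above all others, with a log2FC of 3.84 (SE 0.196) against vehicle and 2.86 against 2 h. Tnc, tenascin C, went from 9.12 and 4.27 CPM to 232 and 164 CPM (4.88, SE 0.373). Vim, vimentin, was already at 1819 and 1984 CPM with vehicle and reached 2938 and 3219 CPM at 12 h, and Cdh2, N-cadherin, went from 125 and 118 CPM to 194 and 219 CPM. Neither passed the fold threshold, with a log2FC of 0.69 (SE 0.149) and 0.76 (SE 0.105). All late libraries were above those with vehicle, while the groups did not overlap in 8505 of the 11080 genes tested. S100a4, often used as a fibroblast marker, was called lower, from 1081 and 1095 CPM to 415 and 582 CPM (-1.13, SE 0.204, and -0.92 without 12 h replicate 1, where it is no longer called).

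Many genes of the actin cytoskeleton were called higher. Of 30 tested stress fibre and focal adhesion genes 13 were called higher and 1 lower, with a median log2FC of 0.82, and their summed level went from 11860 and 12190 CPM with vehicle to 30190 and 30290 CPM at 12 h. Actb, cytoplasmic β-actin and the most abundant member, was counted at 2676 and 2819 CPM with vehicle, 3454 and 4452 CPM after 2 h and 9645 and 9345 CPM at 12 h (log2FC 1.79, SE 0.149). Actn1, the actin crosslinker α-actinin 1, went from 219 and 239 CPM to 1159 and 1137 CPM (2.32, SE 0.117). The largest rises of the list were in Pdlim7 (3.12, SE 0.169), which links actinin to kinases, and in zyxin, Zyx (2.69, SE 0.208). Tpm1 (0.66) and Vcl (0.86) did not pass the fold threshold, and Lima1, an actin-bundling protein gene, was called lower (-1.56, SE 0.118). Of its other abundant members, non-muscle myosin Myh9 rose from 2131 and 2212 CPM to 5925 and 6117 CPM, filamin A (Flna) from 1611 and 1674 CPM to 4516 and 4782 CPM. Outside the list, the actin-binding thymosin β4 gene Tmsb4x rose from 545 and 424 CPM to 2196 and 1986 CPM. Ezr, which ties actin to the apical membrane, fell from 794 and 861 CPM to 240 and 299 CPM (-1.62, SE 0.136).

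Smooth muscle type contractile genes were mostly absent. Of 15 genes 6 were tested, with 3 called higher (Cald1, Tagln2 and Cnn2), 1 lower (Mylk) and a median log2FC of 1.01. Acta2, smooth muscle α-actin, had 4 counts in each vehicle library and 15 and 11 at 12 h, under 1 CPM throughout. Tagln, SM22α, had 0 counts and 1 count with vehicle and 2.48 and 1.95 CPM at 12 h, at least 12.1-fold higher, but was counted too low for the test, as were Cnn1 and Myh11. Cald1, caldesmon, rose from 279 and 312 CPM to 778 and 679 CPM (1.30, SE 0.166), and Mylk, myosin light chain kinase, fell from 123 and 94.0 CPM to 42.1 and 35.7 CPM (-1.48, SE 0.222). Rhob, an inducible small GTPase, rose from 27.4 and 25.8 CPM to 262 and 194 CPM (3.10, SE 0.220), and Rnd3, an atypical GTPase, fell from 286 and 241 CPM to 75.4 and 76.8 CPM (-1.79, SE 0.144).

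**Figure D2:**
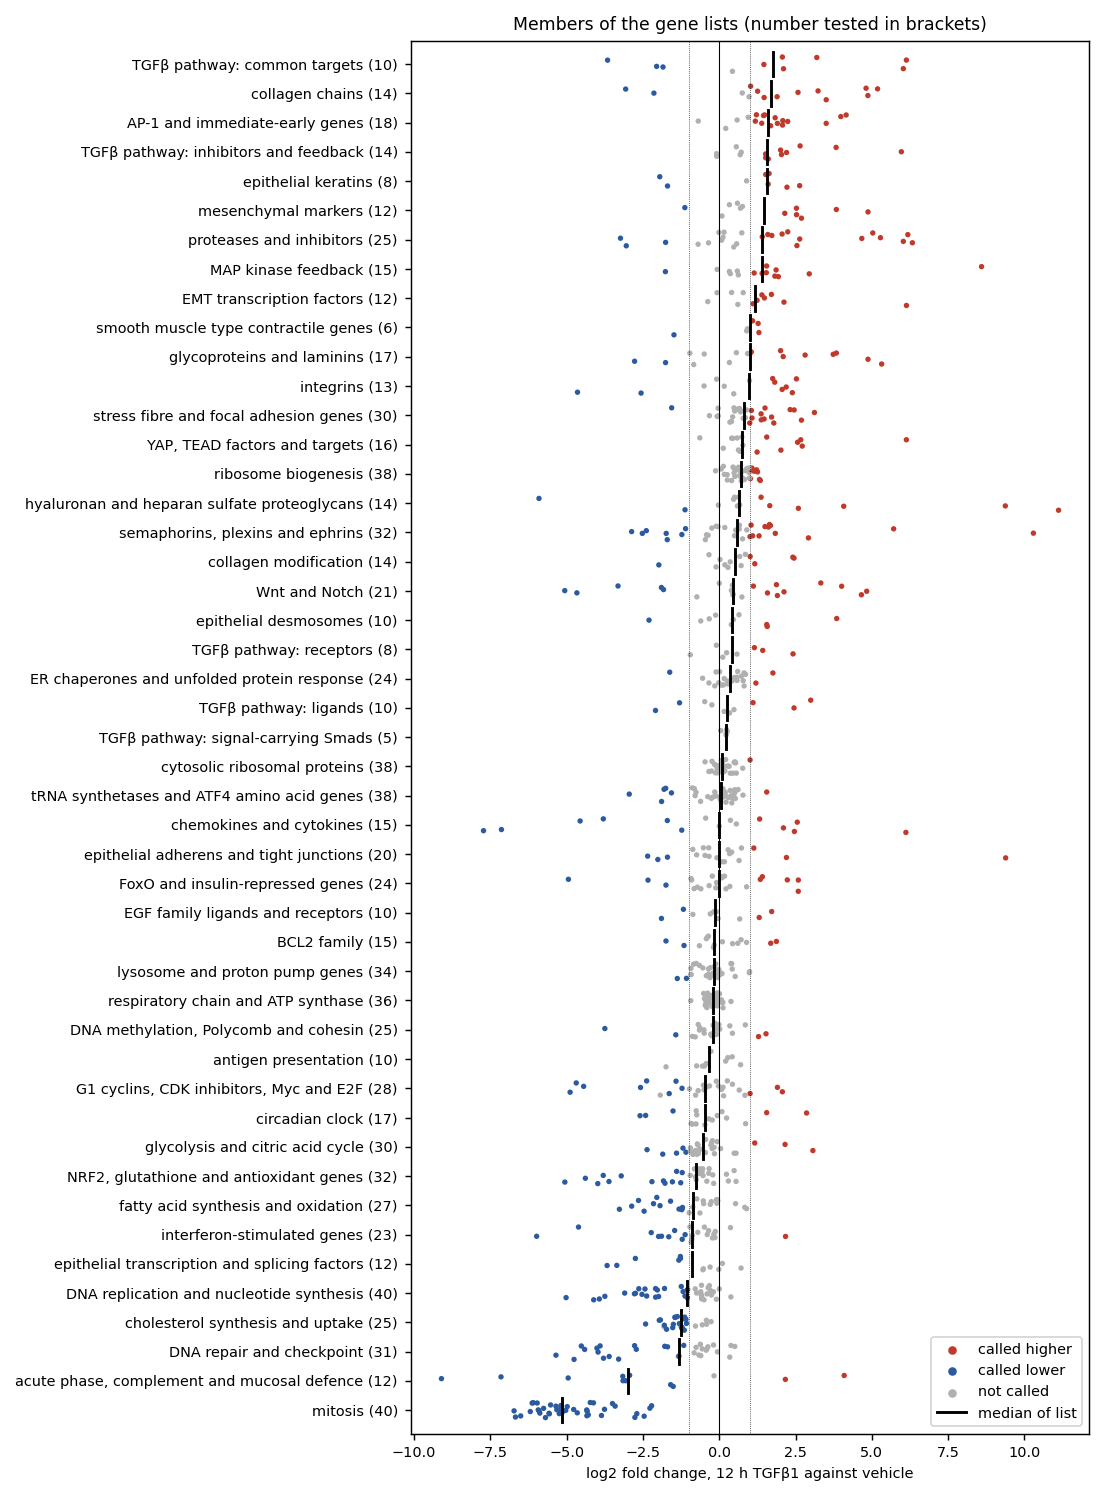
Fitted log2 fold change of each tested member of 47 gene lists at 12 h against vehicle, with 1 row per list ordered by its median (black bar), the number tested in brackets, red for members called higher, blue for called lower and grey for the rest, and dotted lines at the fold threshold. All 40 mitosis genes lie on the lower side, with a median of -5.16, while collagen chains and common TGFβ targets have the highest medians, 1.68 and 1.77.

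The extracellular matrix was among the gene groups with the largest rises. Of 14 tested collagen chains, 10 were called higher and 2 lower, with a median log2FC of 1.68. With at least 10 counts in every library 8 of 12 were higher and the median was 1.36. With no filter 10 of 24 were higher and the median was 1.17. Col7a1, the anchoring fibril collagen, was counted at 4.94 and 5.16 CPM with vehicle, 11.48 and 23 CPM after 2 h and 154 and 215 CPM at 12 h (log2FC 5.19, SE 0.378). Col1a1, a chain of collagen I, was low but rose from 0.647 and 1.27 CPM to 11 and 10.8 CPM (3.51, SE 0.350), and Col5a3 from 0.0588 and 0.637 CPM to 7.23 and 13.0 CPM (4.87, SE 0.683). The 2 collagens called lower were the chains of collagen VI, Col6a1 and Col6a2, neighbours on chromosome 10. Col6a1 had 272 and 229 CPM with vehicle, 299 and 224 CPM after 2 h and 47.1 and 66.8 CPM at 12 h, so the fall was seen only in the late libraries. The log2FC was -2.14 (SE 0.221) for Col6a1 and -3.07 (SE 0.240) for Col6a2. Basement membrane Col4a1 (0.98) stayed just under the fold threshold, and passed it without 12 h replicate 1 (1.06).

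Enzymes that modify collagen had 4 of 14 members called higher and 1 lower (median log2FC 0.52). Plod2, a lysyl hydroxylase that sets collagen crosslinks, rose from 50.4 and 50.3 CPM to 284 and 253 CPM (2.41, SE 0.152). The procollagen protease enhancers went in opposite directions, with Pcolce2 at 2.45 (SE 0.217) and Pcolce at -1.98 (SE 0.117). The crosslinking enzyme gene Lox had no count with vehicle and 0.871 and 1.18 CPM at 12 h, at least 5.58-fold higher, and was too low to be tested. Among matrix glycoproteins and laminins 9 of 17 were called higher and 2 lower (median log2FC 1.00), and their summed level went from 3784 and 3364 CPM to 12670 and 12480 CPM. Thbs1, thrombospondin 1, an activator of latent TGFβ, rose from 77.1 and 52.4 CPM with vehicle and 272 and 125 CPM at 2 h to 2688 and 2499 CPM (5.32, SE 0.423). Fbln2, fibulin 2, the most abundant of the list, rose from 580 and 492 CPM to 3752 and 3791 CPM (2.82, SE 0.124). Efemp1 (-2.77, SE 0.419) and Nid2 (-1.76, SE 0.361) were called lower.

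Hyaluronan and heparan sulfate proteoglycan genes had 6 of 14 members called higher and 2 lower (median log2FC 0.65). Has2, a hyaluronan synthase at chr15:56497182-56526094 on the minus strand, had 1 count and 0 counts in the vehicle libraries, 4 counts in each 2 h library and 83.1 and 82.2 CPM at 12 h. This was at least 450-fold higher than with vehicle, and the log2FC between 12 h and 2 h was 8.63 (SE in edgeR's fit 0.248). Tnfaip6, which links hyaluronan to heavy chains, had no count with vehicle and 3.27 and 5.44 CPM at 12 h, at least 23.7-fold higher. The hyaluronan receptor gene Cd44 had a log2FC of 0.60 and was not called. Hmmr, a hyaluronan receptor gene that also acts on the mitotic spindle, fell from 53.8 and 112 CPM to 1.09 and 1.69 CPM (-5.91, SE 0.562). Gpc6, a glypican, was the other member called lower, and without vehicle replicate 1 it had a log2FC of -0.99 and no call.

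Of 13 tested integrin genes 6 were called higher and 2 lower (median log2FC 0.99, or 0.48 with no filter). Itgb1, the shared β1 chain, rose from 578 and 563 CPM to 2064 and 1964 CPM (1.82, SE 0.124), the fibronectin receptor chain Itga5 from 11.7 and 16.0 CPM to 77.6 and 82.2 CPM (2.53, SE 0.247) and the collagen receptor chain Itga2 from 19.9 and 17.9 CPM to 97.1 and 102 CPM (2.40, SE 0.115). Itgb7 fell from 76.0 and 121 CPM to 2.96 and 4.98 CPM (-4.65, SE 0.437), and Itga7 was also called lower. Among proteases and their inhibitors 13 of 25 were called higher and 3 lower (median log2FC 1.41, or 0.65 with at least 10 counts in every library and 0.74 with no filter). Mmp12, a metalloelastase, was counted at 0.412 and 0.0637 CPM with vehicle, 0.354 and 0.151 CPM after 2 h and 25.8 and 14.4 CPM at 12 h (6.33, SE 0.609). Timp3, an inhibitor of metalloproteases, rose from 0.765 and 0.446 CPM to 45.3 and 44.2 CPM (6.18, SE 0.246) and Timp1 from 12.2 and 16.5 CPM to 77.4 and 90.1 CPM (2.55, SE 0.187). Mmp2 and Mmp9, gelatinases, stayed under 0.5 CPM and were not tested. Adamts1 (-3.24, SE 0.187) and Adamts15 (-3.05, SE 0.251) were called lower.

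Of 18 tested AP-1 and immediate-early genes 14 were called higher and none lower, with a median log2FC of 1.59. Junb was counted at 59.2 and 67.6 CPM with vehicle, 736 and 712 CPM after 2 h and 1092 and 917 CPM at 12 h (log2FC 3.98, SE 0.144), and Fos at 1.82 and 2.10, 17.1 and 18.1, and 21.6 and 23 CPM (3.51, SE 0.173). In both genes the late libraries lay above those at 2 h, with a log2FC of 0.47 and 0.34 between these times that was not called, whereas Egr1 was called higher at 12 h than at 2 h (2.11). Among MAP kinase feedback genes 9 of 15 were called higher and 1 lower (median log2FC 1.41), and the EGF family had 2 higher and 2 lower of 10 (median -0.14, or -0.27 without TMM scaling). Egfr rose from 69.1 and 66.0 CPM to 227 and 218 CPM (1.72, SE 0.105) and Hbegf from 33.1 and 27.4 CPM to 72.0 and 78.3 CPM (1.31, SE 0.148), while Erbb3 was called lower (-1.17, SE 0.192) and Btc too (-1.89), the latter not without vehicle replicate 1 (edgeR's adjusted p = 0.0557) or 12 h replicate 2 (0.102). The phosphatase gene Dusp5 rose from 1.71 and 1.59 CPM to 11.8 and 13.9 CPM (2.95, SE 0.220), and the receptor kinase inhibitor Spry1 fell from 23 and 17.5 CPM to 6.97 and 4.93 CPM (-1.76, SE 0.266).

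A list of YAP, TEAD factors and their targets had 7 of 16 members called higher, including Tead2, and none lower (median log2FC 0.76). Ankrd1 was level at 117 and 117 CPM with vehicle and 134 and 131 CPM at 2 h and reached 734 and 758 CPM at 12 h, with a log2FC of 2.67 (SE 0.0977) against vehicle and 2.5 against 2 h. Cyr61 (2.57, SE 0.138) and Amotl1 (2.72, SE 0.105) rose alongside, whereas Axl had a log2FC of -0.64. In the Wnt and Notch list 9 of 21 were called higher and 5 lower (median log2FC 0.45, or 0.72 with no filter), and 3 lower with at least 10 counts in every library. The Notch ligand gene Jag1 was counted at 63.1 and 60.2 CPM with vehicle, 425 and 314 CPM after 2 h and 1597 and 1520 CPM at 12 h, a steady increase over the groups (4.66, SE 0.180), while the Notch target Hey1 was called lower (-1.90, SE 0.340). Wnt9a (4.83, SE 0.640) and Wnt7a (4.01, SE 0.421) rose, and Wnt4 fell from 6.82 and 9.42 CPM to 0.174 and 0.308 CPM (-5.06, SE 0.407). The common Wnt target Axin2 had a log2FC of 0.45 and was not called.

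Guidance genes (semaphorins, plexins and ephrins) had 12 of 32 members called higher and 7 lower (median log2FC 0.60). Sema4f had no count with vehicle, 1.01 and 1.06 CPM at 2 h and 7.32 and 9.13 CPM at 12 h, at least 44.8-fold higher. Ephb2, an ephrin receptor, had 3 counts and 1 count with vehicle and 7.75 and 5.75 CPM at 12 h, at least 36.7-fold higher. Sema3c, a secreted semaphorin, fell from 348 and 305 CPM to 47.2 and 42 CPM (-2.87, SE 0.227).

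Secreted defence proteins were mostly lower at 12 h. Of 12 tested acute phase, complement and mucosal defence genes, 9 were called lower and 2 higher, with a median log2FC of -3.0, or -1.90 with no filter. Their summed level was 2353 and 1419 CPM with vehicle, 1973 and 1043 CPM after 2 h and 584 and 496 CPM at 12 h, so that replicate 1 was the higher at each time and both late libraries were below all others. C3, the central complement component, fell from 506 and 326 CPM to 63.0 and 45.6 CPM (-2.94, SE 0.370), and haptoglobin, Hp, from 34.7 and 20.5 CPM to 0.261 and 0.103 CPM (-7.15, SE 0.667). Ceruloplasmin, Cp, the most abundant of the list, went from 1221 and 733 CPM to 370 and 318 CPM (-1.51, SE 0.344), a call that was lost without vehicle replicate 1 (edgeR's adjusted p = 0.0582) or either 12 h replicate. Without 12 h replicate 2, 5 members of this list were called lower. Saa3 had no count at 12 h against 5.18 and 1.97 CPM with vehicle, at least 25.1-fold lower, and was not called without 12 h replicate 1 or 2 (edgeR's adjusted p = 0.0638 and 0.0591). Complement factor I, Cfi, rose from 0.235 and 0.0637 CPM to 3.05 and 2.36 CPM, and C4b was also called higher.

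Chemokines and cytokines were called in both directions, 5 higher and 6 lower of 15 tested, with a median log2FC of 0.00 that ran from -0.15 without vehicle replicate 2 to 0.19 with no filter. Cxcl5, a neutrophil attractant, was counted at 401 and 157 CPM with vehicle, 39.6 and 14.6 CPM after 2 h and 2.13 and 1.80 CPM at 12 h (-7.14, SE 0.743), and the related Cxcl1 fell from 43.0 and 20.1 CPM to 2.22 and 2.31 CPM (-3.80, SE 0.408). The vehicle libraries differed over 2.5-fold in Cxcl5, but the late ones were lower than both. Ccl20 had 7.65 and 5.09 CPM with vehicle and 0 counts and 1 count at 12 h, at least 44.8-fold lower. Il11, a cytokine of the IL-6 family, had 2 counts and 1 count with vehicle and 7.40 and 6.21 CPM at 12 h, at least 37.1-fold higher. Csf1 (2.56, SE 0.162) and Lif (2.11, SE 0.210) rose too, while Ccl2 had a log2FC of -0.44.

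Interferon-stimulated genes leaned downwards, with 9 of 23 tested called lower and 1 higher (median log2FC -0.89). Mx1, an antiviral GTPase on chromosome 16, was counted at 69.8 and 26.0 CPM with vehicle, 31.5 and 12.2 CPM after 2 h and 0.871 and 0.616 CPM at 12 h (-5.98, SE 0.760). Replicate 1 of vehicle and of 2 h held over 2 times the level of replicate 2, and the late libraries were below all of these. Irgm1, an interferon-inducible GTPase and the most abundant member, went the other way, from 75.8 and 74.4 CPM to 326 and 351 CPM (2.17, SE 0.1). Ifit1 and Isg15 were under 1 CPM in all libraries. None of 10 antigen presentation genes was called by edgeR's fit of the 3 groups, with a median log2FC of -0.35 that was -0.09 without 12 h replicate 1 and -0.55 without 12 h replicate 2, and B2m had 198 and 186 CPM with vehicle and 226 and 242 CPM at 12 h. With the replicate block, with only the 2 groups compared, with no filter or without either 2 h replicate, 1 of these genes was called lower.

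The cell cycle showed the largest fall of any list. All 40 mitosis genes were called lower at 12 h than with vehicle, and all 40 were called lower than at 2 h, with a median log2FC of -5.16 and -5.05. Their summed level was 2328 and 4732 CPM with vehicle, 2323 and 4338 CPM after 2 h and 196 and 193 CPM at 12 h. Replicate 2 thus held about 2 times the level of replicate 1 with vehicle and at 2 h, while the late libraries were alike and far below both. Without vehicle replicate 1 the median was -5.62 and without vehicle replicate 2 it was -4.47, with 40 genes called lower either way. Plk1, a mitotic kinase, went from 25.1 and 59.1 CPM with vehicle and 35.0 and 69.8 CPM at 2 h to 0.653 and 0.770 CPM (-5.88, SE 0.634). Cdk1, the kinase that drives entry into mitosis, fell from 67.7 and 130 CPM to 4.53 and 5.23 CPM (-4.34, SE 0.433), and Mki67, the most abundant member, from 210 and 498 CPM to 6.92 and 10.8 CPM (-5.32, SE 0.650).

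Genes of DNA replication fell less, with 21 of 40 called lower, none higher and a median log2FC of -1.05. Their summed level was 1334 and 2114 CPM with vehicle, 1366 and 2240 CPM after 2 h and 944 and 946 CPM at 12 h. Without vehicle replicate 2, the library with the higher sum, 15 were called lower and the median was -0.67, and 14 were called lower without either 12 h replicate. Mcm5, a subunit of the replicative helicase, fell from 46.8 and 90.9 CPM to 4.22 and 3.70 CPM (-4.11, SE 0.531), whereas Mcm2 of the same helicase (-0.58) and the clamp Pcna (-0.40) were not called. Thymidine kinase, Tk1, fell from 14.1 and 32.3 CPM to 0.653 and 0.770 CPM (-5.02, SE 0.767). DNA repair and checkpoint genes had 16 of 31 called lower and none higher (median log2FC -1.32), with 15 lower and a median of -0.86 without vehicle replicate 2 and a median of -0.80 with at least 10 counts in every library. Brca1 fell from 76.5 and 89.5 CPM to 7.23 and 6.36 CPM (-3.61, SE 0.160), Fancd2 from 17.9 and 34.6 CPM to 0.653 and 0.616 CPM (-5.35, SE 0.514), and the checkpoint kinase Chek1 was not called (-0.67) except without vehicle replicate 1 (-1.03).

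Among G1 cyclins, CDK inhibitors, Myc and E2F genes 3 of 28 were called higher (10.7%, against 8.03% of all genes tested) and 8 lower (28.6%, against 11.6%). Their median log2FC was -0.46, or -0.21 and 5 lower with at least 10 counts in every library. Cdkn2b, which encodes the CDK4 and CDK6 inhibitor p15, rose from 59.4 and 42 CPM with vehicle and 113 and 89.9 CPM at 2 h to 220 and 206 CPM (2.07, SE 0.195). Cdkn1a, encoding p21, had 64.1 and 68.4 CPM with vehicle and 99.3 and 79.6 CPM at 12 h and was not called (0.43, SE 0.149). Its groups did not overlap, as in 8505 of the 11080 genes tested. Ccnd1 went from 824 and 752 CPM to 562 and 539 CPM, also not called (-0.52, SE 0.139). Myc was higher at 12 h, with 59.7 and 65.8 CPM against 12.5 and 21.0 CPM with vehicle and 16.2 and 18.5 CPM at 2 h (1.91, SE 0.241). E2f8 (-4.89, SE 0.555) and E2f2 (-4.69, SE 0.373) were among the members called lower.

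Promoter sequence was examined for the genes called and for the gene lists. RefSeq windows of 300 bases on GRCm38.p6, from 250 bases before to 50 after the start, were found for 8918 of the 11080 genes tested, and motifs were searched on both strands. The E2F letters TTCCCGC or TTGGCGC were in 19 of 40 windows of the tested replication genes, 14 of 28 of the repair genes and 5 of 34 of the mitosis genes, against 12.4% of the 11384 windows of all genes tested, 109 of the 946 windows of genes called higher and 13.8% of those of genes called lower. The replication and repair lists therefore held the letters more often than all genes tested, and the mitosis list, which fell most, at 14.7%, hardly more often. The windows below are parts upstream of the start of 5 genes called lower, in lower case with E2F matches in capitals, at chr8:75109320-75109376 (plus strand) for Mcm5, chr17:56303264-56303320 (plus) for Uhrf1, chr13:100786557-100786613 (minus) for Ccnb1, chr10:69353059-69353115 (minus) for Cdk1 and chr7:135716415-135716471 (minus) for Mki67, all on GRCm38.p6. They were printed because they hold a match, which is TTCCCGC in Uhrf1 and TTGGCGC, read on either strand, in the other 4.
Mcm5: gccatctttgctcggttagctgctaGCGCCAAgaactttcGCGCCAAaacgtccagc
Uhrf1: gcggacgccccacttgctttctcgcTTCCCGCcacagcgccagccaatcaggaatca
Ccnb1: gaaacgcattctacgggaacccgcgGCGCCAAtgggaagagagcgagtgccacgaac
Cdk1: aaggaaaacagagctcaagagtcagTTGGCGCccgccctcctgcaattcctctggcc
Mki67: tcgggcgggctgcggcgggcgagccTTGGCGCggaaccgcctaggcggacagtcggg

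The core of the interferon response element, GAAANNGAA, was in 9 of 20 windows of the tested interferon-stimulated genes, called or not, against 6.57% of all windows of genes tested. It was in 5.81% of windows of genes called higher and 6.17% of those called lower. Lists with few or no calls held it as well, with 3 of 9 windows of antigen presentation genes and 7 of 35 of cytosolic ribosomal protein genes. The AP-1 letters TGANTCA were in 8.25% of windows of genes called higher, 7.88% of those called lower and 5.27% of all tested, and the palindromic SMAD box GTCTAGAC in 0.211%, 0.156% and 0.264%. The E-box CACCTG, read by Snail and Zeb factors, was in 16.6% of windows of genes called higher and 20.1% of those called lower, against 17.2% of all tested. It was in 13 of 25 windows of the junction genes and in 3 of 5 of the keratins, but in 2 of 10 of the epithelial transcription and splicing factors. Lists of other functions held it often too, with 7 of 22 windows of the cholesterol genes and 3 of 7 of the EGF family. The SREBP letters TCACNCCAC were in 1 of 22 windows of the cholesterol genes and in 1.13% of all tested. The CREB letters TGACGTCA were in 2.33%, 2.03% and 3.18% of windows of genes called higher, called lower and tested. A match of letters is a description of the window and not a measured binding site.

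Of 38 ribosome biogenesis genes 8 were called higher and none lower, with a median log2FC of 0.71, and 31 were higher at an adjusted p under 0.05 regardless of fold. Their summed level was 2437 and 2650 CPM with vehicle, 2404 and 2488 CPM after 2 h and 3788 and 4025 CPM at 12 h, and 10 were called higher at 12 h than at 2 h. The number called against vehicle was 4 without vehicle replicate 1, 12 without vehicle replicate 2, 10 without 12 h replicate 1, 5 without 12 h replicate 2 and 5 without TMM scaling. Rrs1, a ribosome assembly factor, went from 12.5 and 14.6 CPM to 35.1 and 32.6 CPM (1.32, SE 0.146), whereas the abundant Npm1 had a log2FC of -0.12. Cytosolic ribosomal protein genes had 1 of 38 called higher and none lower. Their median log2FC of 0.10 was -0.03 without TMM scaling and -0.006 without 12 h replicate 2. The 1 called gene, Rpl10a (1.01, SE 0.290), lost the call in 6 of the 14 alternatives, with log2FC from 0.76 to 1.15: total counts, only the 2 groups compared, and without vehicle replicate 1, 2 h replicate 1 or either 12 h replicate. Aminoacyl-tRNA synthetase and ATF4 amino acid genes had 1 of 38 called higher, Trib3 (2.63%, against 8.03% of all genes tested), and 5 lower (13.2%, against 11.6%). Their median log2FC of 0.07 ran from -0.06 without TMM scaling to 0.12 without vehicle replicate 2, and was -0.001 without 12 h replicate 2. Psat1, an enzyme of serine synthesis, fell from 432 and 482 CPM to 52.9 and 65.6 CPM (-2.95, SE 0.142), while Asns (-0.37) and Aars (0.04) were not called. Of 24 ER chaperone and unfolded protein response genes 2 were called higher (8.33%, against 8.03% of all genes tested) and 1 lower (4.17%, against 11.6%). Their median log2FC was 0.36, or 0.22 without vehicle replicate 1 or TMM scaling, with Creb3l2 at 1.76 (SE 0.137) and Herpud1 at -1.62 (SE 0.181). The chaperone Hspa5 had 387 and 634 CPM with vehicle and 1084 and 1264 CPM at 12 h (1.2, SE 0.309) and was not called without vehicle replicate 1 or either 12 h replicate (edgeR's adjusted p from 0.0707 to 0.113).

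Most genes of cholesterol synthesis fell. Of 25 tested genes of cholesterol synthesis and uptake 19 were called lower and none higher, with a median log2FC of -1.24 and a highest value of -0.27. Their summed level was 8066 and 6996 CPM with vehicle, 8201 and 6741 CPM after 2 h and 2969 and 3584 CPM at 12 h, and 17 were called lower at 12 h than at 2 h, with a median of -1.19. Lss, lanosterol synthase, was counted at 488 and 442 CPM with vehicle, 378 and 355 CPM after 2 h and 68.5 and 106 CPM at 12 h (-2.41, SE 0.210). The squalene epoxidase gene Sqle fell from 560 and 565 CPM to 213 and 272 CPM (-1.22, SE 0.150). Among fatty acid genes 12 of 27 were called lower and none higher (median log2FC -0.87), with 1 called higher when either vehicle replicate is left out. Scd2, the most abundant, went from 6218 and 5866 CPM to 2356 and 2492 CPM (-1.32, SE 0.178), the related desaturase Scd1 from 495 and 488 CPM to 122 and 117 CPM (-2.05, SE 0.127), and Fasn from 736 and 775 CPM to 297 and 350 CPM (-1.22, SE 0.117). Cpt1a, which brings fatty acids into mitochondria, had a log2FC of -1.23 (SE 0.0967), and the coactivator Ppargc1a one of -3.27 (SE 0.242).

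**Figure D3:**
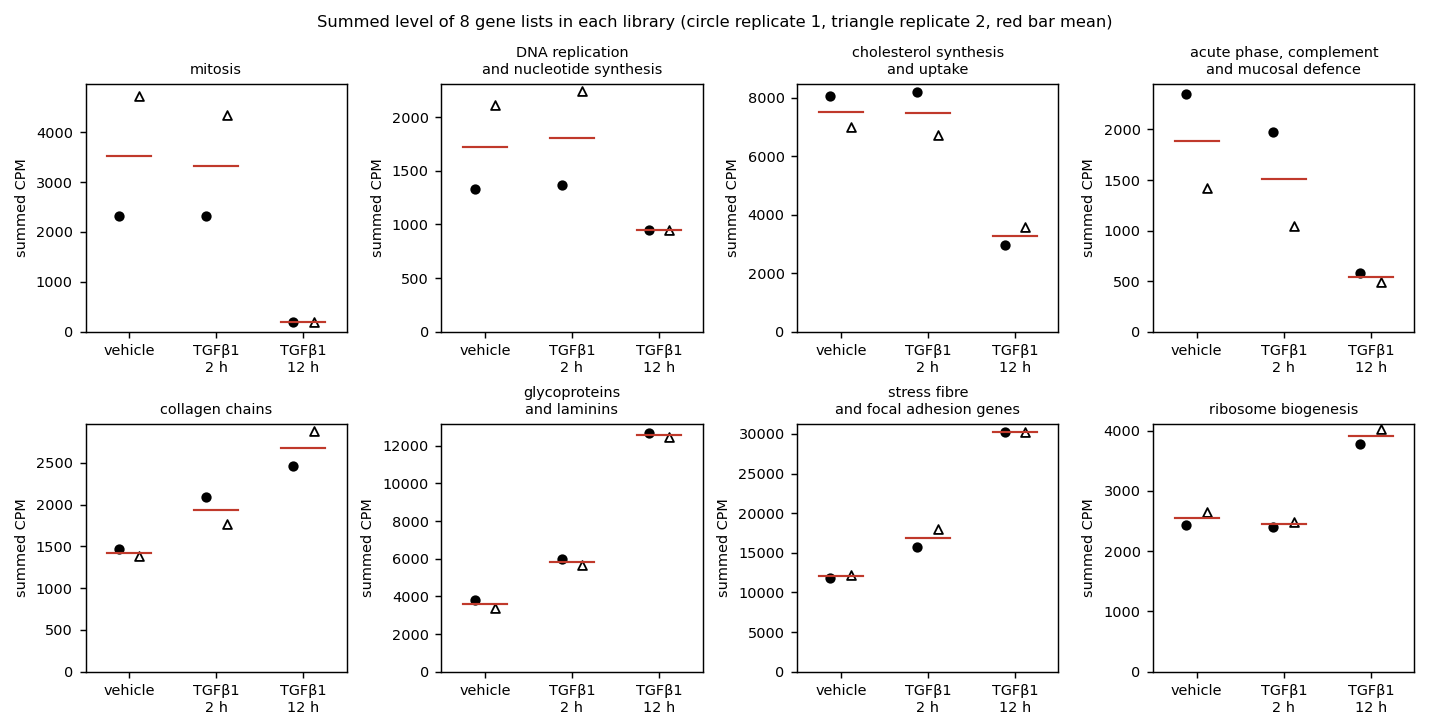
Summed TMM-normalized CPM of 8 gene lists in each library (vertical axes start at 0), with vehicle, TGFβ1 for 2 h and TGFβ1 for 12 h on the horizontal axis, circles for replicate 1, triangles for replicate 2 and red bars for the mean. Mitosis genes sum to 2328 and 4732 CPM with vehicle and 196 and 193 CPM at 12 h, while stress fibre and focal adhesion genes go from 11860 and 12190 to 30190 and 30290 CPM.

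Of 32 tested NRF2, glutathione and antioxidant genes 13 were called lower and none higher, with a median log2FC of -0.77. Gclc, the catalytic subunit of glutathione synthesis, was counted at 554 and 470 CPM with vehicle, 277 and 271 CPM after 2 h and 35.1 and 38.4 CPM at 12 h (-3.80, SE 0.131). The aldehyde dehydrogenase genes Aldh3a1 (54.9 and 50.7 CPM to 1.61 and 1.54 CPM) and Aldh1a1 (110 and 107 CPM to 4.75 and 5.59 CPM) fell further, with a log2FC of -5.06 (SE 0.150) and -4.39 (SE 0.137). All late libraries were below all vehicle libraries in these 3 genes, while the groups did not overlap in 8505 of the 11080 genes tested. Hmox1 had a log2FC of -0.53 and was not called, and Nqo1 was too low for the test.

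Of 30 glycolysis and citric acid cycle genes 3 were called higher (10.0%, against 8.03% of all genes tested) and 5 lower (16.7%, against 11.6%), with a median log2FC of -0.54. Hk2, hexokinase 2, rose from 18.5 and 20.1 CPM with vehicle to 184 and 142 CPM at 2 h and 168 and 157 CPM at 12 h (3.07, SE 0.156), and Pfkfb3, which makes an activator of glycolysis, rose by 2.16 (SE 0.170). Idh1, cytosolic isocitrate dehydrogenase, fell from 1137 and 1049 CPM to 198 and 227 CPM (-2.37, SE 0.132), and Pkm and Ldha had a log2FC of -0.68 and -0.94 without a call. Ldha was called lower without TMM scaling (-1.07) and without 12 h replicate 2 (-1.11). None of the 36 tested respiratory chain and ATP synthase genes was called in either direction by edgeR, limma-voom or DESeq2, with a median log2FC of -0.19, and 1 was called lower without TMM scaling or without vehicle replicate 1, while the median was -0.30 without 12 h replicate 2 and -0.32 without TMM scaling. Lysosome and proton pump genes had 2 of 34 called lower, Neu1 and Atp6v1b2, and none higher (median log2FC -0.17), with 2 higher without vehicle replicate 1, 1 higher by limma-voom and with the replicate block, 5 lower and a median of -0.29 without TMM scaling and a median of -0.28 without 12 h replicate 2, and Ctsd, the most abundant, had a log2FC of 0.43.

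Lists related to growth factor withdrawal were described because the late cells had been without serum and insulin for longer. Of 24 tested FoxO and insulin-repressed genes 5 were called higher (20.8%, against 8.03% of all genes tested) and 3 lower (12.5%, against 11.6%), with a median log2FC of 0.00. The number lower was 5 without TMM scaling and 1 with at least 10 counts in every library, and the median ran from -0.16 without 12 h replicate 1 to 0.08 with at least 10 counts in every library. Fbxo32, a ubiquitin ligase gene activated by FoxO factors, was counted at 23.5 and 20.5 CPM with vehicle, 53.9 and 52.0 CPM after 2 h and 138 and 127 CPM at 12 h (2.59, SE 0.117). Igfbp3 rose from 19 and 16.0 CPM to 107 and 104 CPM (2.59, SE 0.140), with no increase at 2 h, and Igfbp5 fell from 3.29 and 2.87 CPM to 3 counts and 1 count, at least 21.6-fold lower. The insulin-repressed genes Irs2 (0.12) and Pik3ip1 (0.35) were not called. Circadian clock genes had 2 of 17 called higher (11.8%, against 8.03% of all genes tested) and 3 lower (17.6%, against 11.6%). Their median log2FC was -0.47, and 5 were lower without TMM scaling. Bhlhe40, a repressor of the clock that many stimuli induce, rose from 73.2 and 96.0 CPM to 607 and 624 CPM (2.86, SE 0.151), and Dbp fell from 14.3 and 12.5 CPM to 1.87 and 2.57 CPM (-2.60, SE 0.234). Genes of DNA methylation, Polycomb and cohesin had 2 of 25 called higher, Dnmt3a and Kdm6b (8.0%, against 8.03% of all genes tested). Another 2, Uhrf1 and Cbx7, were called lower (8.0%, against 11.6%). The median log2FC was -0.20, or -0.31 and -0.11 without 12 h replicate 1 and 2 and -0.33 without TMM scaling. Of 15 BCL2 family genes 2 were called higher (13.3%, against 8.03% of all genes tested) and 2 lower (13.3%, against 11.6%). Their median log2FC was -0.16, or -0.05 without 12 h replicate 1 and -0.29 without TMM scaling. Bmf, a BH3-only activator of apoptosis, rose from 329 and 288 CPM to 957 and 1032 CPM (1.69, SE 0.123), and Bid (-1.15, SE 0.112) and Bnip3 (-1.75, SE 0.305) were called lower. The part of the serum-free time in these values was not tested.

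Genes outside these lists also changed. The largest rise in CPM was that of Clu, which encodes the secreted chaperone clusterin (chr14:66587320-66600385, plus strand). It was counted at 855 and 360 CPM with vehicle, 2103 and 1075 CPM after 2 h and 13150 and 10350 CPM at 12 h. Replicate 1 was the higher at each time, but the 3 groups did not overlap, and the log2FC was 4.27 (SE 0.515, edgeR's adjusted p = 0.000943). The cysteine protease gene Ctsw went from 0.0588 and 0.509 CPM to 80.4 and 78.4 CPM (8.13, SE 0.526), the adhesion receptor gene Adgra1 from 0.471 and 0.191 CPM to 110 and 109 CPM (8.32, SE 0.417) and the R-spondin receptor gene Lgr6 from 0.471 and 0.255 CPM to 49.9 and 57.8 CPM (7.17, SE 0.431). Lgr5, a member of the Wnt and Notch list from the same receptor family, fell from 6.65 and 3.18 CPM to 0.218 and 0.154 CPM (-4.67, SE 0.767). Lce1g, a gene of the cornified envelope family, had 0 counts and 1 count with vehicle and 11.1 and 14.9 CPM at 12 h, at least 70.7-fold higher. Ass1, argininosuccinate synthase, and Gm5424, which resembles it, rose together from under 0.5 CPM to between 17.9 and 30.4 CPM, and since they may share reads their separate levels are uncertain. Tm4sf4 rose from 1869 and 1604 CPM to 3529 and 3687 CPM (1.05, SE 0.143), with no call without vehicle replicate 2 (0.95) or without TMM scaling (0.93).

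Of the falls, Dio3os had 44.2 and 30.2 CPM with vehicle, 12.7 and 4.94 CPM after 2 h and 2 counts and 1 count at 12 h, at least 261-fold lower. Dio3, the neighbouring gene on the other strand of chromosome 12 that encodes a deiodinase of thyroid hormone, fell from 31.4 and 25.5 CPM to 0 and 0.205 CPM (-8.13, SE 0.627). The 2 genes lie on opposite strands and were counted with strand, so both fell in their own counts. The uncharacterized 8430408G22Rik had no count at 12 h against 26.7 and 10.4 CPM with vehicle, at least 131-fold lower. The angiopoietin gene Angpt1 fell from 63.3 and 47.2 CPM to 0.131 and 0.462 CPM (-7.57, SE 0.547), Sptssb, of sphingolipid synthesis, from 125 and 67.4 CPM to 0.479 and 0.257 CPM (-7.98, SE 0.634), and Ugt2b36, a glucuronosyltransferase, from 19.1 and 11.46 CPM to 0.174 and 0 CPM (-7.26, SE 0.843). Fam83d, a spindle protein gene (-7.00, SE 0.543), and the DNA glycosylase gene Neil3, at least 74.1-fold lower, join the cell cycle genes above. Among abundant genes, Selenop, which carries selenium, fell from 2019 and 1675 CPM to 328 and 313 CPM (-2.53, SE 0.199), the membrane-binding annexin gene Anxa4 from 1628 and 1348 CPM to 594 and 580 CPM (-1.34, SE 0.146), and the ferritin heavy chain gene Fth1 from 727 and 945 CPM to 263 and 242 CPM (-1.73, SE 0.198). Itm2b fell from 1455 and 1237 CPM to 692 and 637 CPM (-1.02, SE 0.123), with -0.90 without vehicle replicate 1 and -0.97 without 12 h replicate 2, where it is not called.

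The test of 12 h against 2 h shows where the late response differs from the early one. In this comparison 499 genes (4.5%) were called higher and 1094 (9.87%) lower. Both comparisons use the same 12 h libraries. Members lower at 12 h than at 2 h were 40 of 40 in the mitosis list, 17 of 25 for cholesterol, 8 of 12 for the acute phase list, 6 of 12 epithelial transcription and splicing factors, 15 of 31 for DNA repair, 19 of 40 for DNA replication and 14 of 32 antioxidant genes. Only the acute phase list among these also had a member called higher, 1 gene. Members higher at 12 h than at 2 h were 6 of 12 mesenchymal markers, 6 of 15 MAP kinase feedback genes, 9 of 25 proteases and inhibitors, 5 of 14 collagen chains, 6 of 17 glycoproteins and laminins, 8 of 30 stress fibre genes and 10 of 38 ribosome biogenesis genes. In the same lists 1 mesenchymal marker, 2 proteases or inhibitors, 2 collagen chains, 3 glycoproteins or laminins and 1 stress fibre gene were lower. The FoxO and insulin-repressed genes had 6 higher and 4 lower of 24. The EMT factors had 1 higher and 1 lower of 12, and the inhibitors and feedback genes of TGFβ 2 higher and 1 lower of 14.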

How the data were processed

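Total RNA of 6 libraries was examined. According to the study's methods and the submitters' processing notes, the authors aligned single-end reads with subjunc (Subread) to mm9, kept uniquely mapped reads, removed duplicates with SAMtools 0.1.19 and counted reads over the exons of UCSC genes with featureCounts, with strand. The deposited values are raw counts of 21240 genes, whole numbers with no normalization. Depth was 14705886 to 23786993 counts a library, so that 3 counts, the floor used for bounds on fold changes, equal 0.131 to 0.191 CPM. Floors cover counting error only. Because only unique reads were counted, levels of genes with near-identical copies (Actb, Krt8, Krt18, Tmsb4x, Fth1, Ass1, Gm5424, ribosomal proteins and some glycolytic genes) are uncertain.

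Tests ran in R 4.3.3 (edgeR 4.0.16 with TMM factors and one fit of the 3 groups, limma 3.58.1, DESeq2 1.42.0). Lists, promoters and plots were made in Python 3.11.15 (numpy 2.4.6, pandas 2.3.3, matplotlib 3.10.9). Levels are TMM-normalized CPM, and the SE is the absolute log2FC divided by the square root of F. P-values are two-sided. They rest on the spread between the 2 biological replicates of each of the 3 groups, pooled in one fit and moderated across genes. Gene positions are from GENCODE on NCBIM37, and promoters (RefSeq, GRCm38.p6) were matched by gene ID.

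The members and lists were chosen with earlier results of these data known. Lists were described by counts and medians, without a test of the list. Against vehicle, 8.03% of all genes tested were called higher and 11.6% lower, with a median log2FC of 0.015. Counts of a list are to be read beside these shares. Genes named are, in each direction, the 10 called genes with the largest log2FC at 10 CPM or more in the higher group, the 10 with the largest difference in CPM, key genes, top risers and fallers and the most abundant gene of each list, and the markers. Others were named after their values were seen. The 14 alternatives were each of the 6 libraries left out in turn, limma-voom and DESeq2 in place of edgeR, edgeR with the size factors of DESeq2 or with total counts and no TMM, a filter of 10 counts in all libraries or none, replicate numbers as a block, and a fit restricted to the 2 groups compared.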

Additional observations from a re-analysis of the deposited data

Results flagged for a closer look

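Effects that differ between 2 h and 12 h were flagged by edgeR's quasi-likelihood test of 12 h against 2 h, in which 499 genes were called higher and 1094 lower. A total of 9 genes were called in opposite directions at the 2 times, each higher than vehicle at 2 h, lower than vehicle at 12 h and lower at 12 h than at 2 h. Their log2FC between 12 h and 2 h was -6.18 for Wnt4, -4.57 for the adenosine receptor gene Adora1, -4.37 for the receptor gene Hcar2, -3.70 for Krt6a, -3.65 for the kinase gene Camk1g, -3.18 for Megf6, -2.87 for the chemokine gene Cx3cl1, -2.64 for the transcriptional coactivator gene Eya2 and -2.35 for the interleukin 22 receptor gene Il22ra1. Krt6a, Camk1g and Megf6 were under 2 CPM with vehicle and at 12 h and passed the level filter through the 2 h libraries only. Krt6a was no longer called lower than vehicle at 12 h with DESeq2 or without any 1 of the vehicle and 12 h replicates. Eya2, the most abundant of them, was counted at 44.5 and 48.6 CPM with vehicle, 125 and 134 CPM after 2 h and 20.3 and 21.4 CPM at 12 h, with no overlap between groups. Wnt4 had 14.2 and 21.0 CPM at 2 h and 0.174 and 0.308 CPM at 12 h.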

How the results depend on the processing

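The 4 counts of called genes stayed within 1.5 times under all 14 alternatives. The number called higher than with vehicle ran from 740 (total counts without TMM) to 1042 (no filter), and the number called lower from 1128 (without 12 h replicate 1) to 1608 (no filter). Against 2 h, the number called higher ran from 360 (without 12 h replicate 2) to 600 and the number lower from 800 (without 12 h replicate 1) to 1318, both highest with no filter. With the replicate block 905 genes were called higher and 1342 lower than with vehicle, and 533 higher and 1152 lower than at 2 h, of which 887, 1282, 498 and 1088 were also called without it. The correlation across genes of the difference between replicates 1 and 2 was 0.263 for vehicle and 12 h, 0.708 for vehicle and 2 h and 0.392 for 2 h and 12 h. With 2 pairs and no label of a shared culture, the samples were not treated as paired. Of 290 named genes tested none reversed, 21 lost their call and 8 gained one under at least 1 alternative (245 of them had a value with at least 10 counts in every library), of which 20 and 8 did so when a library was left out. A lone library is then assumed to vary like the other groups. Of 1344 counts of list members across lists and alternatives 1298 stayed within 1.5 times. The cause of these changes was not tested.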

Other observations

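Limits of these values are as follows. The vehicle libraries were taken at 2 h, after 8 h without serum, and the late libraries after 18 h, so that TGFβ1 and the longer time without serum and insulin are not separated in the comparisons of 12 h with vehicle and of 12 h with 2 h. Each group has 2 libraries, whose numbers are not known to mark shared cultures. The vehicle libraries differ from each other in mitosis, replication and acute phase genes. RNA levels alone were read, with no measure of protein, cell number or cell cycle phase. Promoter matches are letters in a window, and levels of genes with near copies are uncertain because only uniquely mapped reads were counted.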
